A study of Mus musculus with 13 samples.

Results

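Expression of 10 chemokine system genes was followed in F4/80+ cells of mouse fetal liver (FL) at embryonic day E13.5. They are 4 receptors (Ccr1, Ccr2, Cx3cr1 and Cxcr4) and 6 ligands (Ccl3, Ccl4, Ccl6, Ccl9, Ccl24 and Cxcl12), given as a fixed list of symbols, and all 10 were found among the 23337 genes of the EKLF+/+ and EKLF-/- count tables, the 35498 genes of the EKLF/GFP tables and the 54227 genes of the single-cell table. EKLF (Klf1) is an erythroid transcription factor that is also made in some macrophages of the FL. Bulk RNA-Seq covered 3 libraries of EKLF+/+ and 3 of EKLF-/- F4/80+ cells, isolated by fluorescence-activated sorting, where the second group lacks EKLF in every cell of the embryo. A further 3 EKLF/GFP+ and 3 EKLF/GFP- libraries came from F4/80+ cells of the pEKLF/GFP reporter line, in which a single-copy EKLF promoter drives GFP and the endogenous Klf1 is intact, so GFP marks promoter activity and not EKLF protein. One single-cell library came from EKLF+/+ FL cells of 2 pooled littermates, selected for F4/80 with magnetic beads in the presence of a peptide that blocks Icam4 binding to αv integrin. Every embryo is labelled C57BL/6, although the reagent list of the study names a different background for the EKLF mutants.

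Chemokines are small secreted proteins that bind G protein-coupled receptors on leukocytes and direct where these cells move or stay. CCR2, the receptor for CCL2 and CCL7, is known for the release of monocytes from sites of blood formation, CX3CR1 is the fractalkine receptor of monocytes and tissue macrophages, and CCR1 binds several inflammatory ligands including CCL3, CCL6 and CCL9. CXCR4 with its ligand CXCL12 holds stem cells, B cell precursors and neutrophils in the fetal liver and marrow. CCL3 and CCL4 are inflammatory ligands, CCL6 and CCL9 are rodent chemokines, and CCL24 is an eotaxin that binds CCR3 on eosinophils and is made by some macrophages.

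In the GRCm38 annotation, Ccl9, Ccl6, Ccl3 and Ccl4 lie within 91765 bases of chromosome 11 (83572919 to 83664683), and Ccr1 and Ccr2 lie within 151434 bases of chromosome 9 (123962124 to 124113557). The remaining genes stand apart, with Cx3cr1 at chromosome 9 119901616 to 120069879, Cxcr4 at chromosome 1 128588199 to 128592293, Ccl24 at chromosome 5 135569937 to 135573049 and Cxcl12 at chromosome 6 117168535 to 117181367. The annotated span of Cx3cr1 overlaps 5 other coding genes (Wdr48, Gorasp1, Ttc21a, Csrnp1 and Xirp1), so reads in shared exons may not be assigned to it. Of the runs of 31 bases in Ccr2 transcripts, 3.41% also occur in other genes. The share was 3.75% for Ccl9, 1.75% for Cx3cr1, 1.02% for Ccl6 and under these values for the other 6 genes.

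Promoter sequence was available for 8 of the 10 genes (RefSeq, GRCm38.p6), and 4 are shown because they belong to receptors with matches to the letters searched (Ccr1, Cxcr4) or to neighbours on chromosome 11 with unlike results in the reporter cells (Ccl9, Ccl6). That of Ccr2 overlaps a first exon of another annotated transcript and is not shown. Each line gives the 250 bases before the RefSeq start, in the direction of the gene. Capitals mark matches to CCNCNCCC, the letters of a CACC box that EKLF is known to bind, or to the kappa B letters GGG and TTTCC with 2 bases between them, on either strand.
Ccr1, chr9:123968693-123968942, minus strand: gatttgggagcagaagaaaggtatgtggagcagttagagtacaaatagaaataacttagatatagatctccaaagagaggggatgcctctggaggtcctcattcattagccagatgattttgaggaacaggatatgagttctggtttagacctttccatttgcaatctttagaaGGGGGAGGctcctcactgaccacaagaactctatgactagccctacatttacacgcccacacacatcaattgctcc
Cxcr4, chr1:128592300-128592549, minus strand: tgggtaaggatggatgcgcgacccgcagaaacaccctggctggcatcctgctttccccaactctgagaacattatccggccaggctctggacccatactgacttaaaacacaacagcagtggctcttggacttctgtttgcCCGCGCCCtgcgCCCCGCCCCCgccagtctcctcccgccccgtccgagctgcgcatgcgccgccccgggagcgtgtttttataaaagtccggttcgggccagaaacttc
Ccl9, chr11:83578637-83578886, minus strand: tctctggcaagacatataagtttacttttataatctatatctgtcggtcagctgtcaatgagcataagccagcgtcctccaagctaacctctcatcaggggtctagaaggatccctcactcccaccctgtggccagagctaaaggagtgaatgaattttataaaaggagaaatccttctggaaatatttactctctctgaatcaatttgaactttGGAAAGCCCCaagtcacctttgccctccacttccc
Ccl6, chr11:83593088-83593337, minus strand: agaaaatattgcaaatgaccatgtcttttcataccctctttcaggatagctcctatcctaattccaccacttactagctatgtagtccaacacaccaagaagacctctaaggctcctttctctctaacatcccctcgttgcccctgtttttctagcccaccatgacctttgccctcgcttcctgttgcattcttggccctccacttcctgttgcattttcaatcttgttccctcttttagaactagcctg
Searched over 300 bases (250 before and 50 after the start), CCNCNCCC occurred in 3 of the 8 promoters (Cxcr4, Ccr1 and Cxcl12) and in 49.5% of all 32851 promoters. The matches of Cxcr4 began 109, 97 and 95 bases before the start, the last 2 of them overlapping. The kappa B letters occurred in Ccl9 alone of the 8 (35 bases before the start) and in 1.63% of all promoters, and GAGGAAG, letters bound by PU.1, in 0 of the 8 and 13.6% of all. These are matches of letters in a window and were not tested as binding sites.

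Libraries held 10695514 to 15362161 counts on genes in the EKLF+/+ and EKLF-/- set and 22723279 to 28736396 estimated counts in the EKLF/GFP set. Klf1 was at 362, 305 and 376 counts per 1000000 counts on genes (CPM) in EKLF+/+ libraries and at 58.7, 64.2 and 57.1 CPM in EKLF-/- libraries (5.79-fold lower), and it was 2.55-fold higher in EKLF/GFP+ than in EKLF/GFP- cells. Adgre1, which encodes F4/80, was at 30.99 ± 3.67 CPM (SD, n = 3) in EKLF+/+, 33.6 ± 5.84 in EKLF-/-, 74.5 ± 34.6 in EKLF/GFP+ and 64.5 ± 18.2 in EKLF/GFP- cells. Markers of other cell types were measured beside it. The summed level of 15 macrophage-like markers was 386 to 456 CPM in EKLF+/+ libraries, against 1754 to 2669 CPM for 9 neutrophil-like and 10180 to 11560 CPM for 10 erythroid-like markers. In these bulk samples, a larger number of cells of one type and more RNA per cell cannot be told apart.

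The first comparison asked how the chemokine system differs when F4/80+ cells form without EKLF. Of the 4 receptors, 2 rose in EKLF-/- cells (Ccr2 and Cxcr4), and none of the 6 ligands passed the edgeR test. A gene was called when edgeR's quasi-likelihood test gave a Benjamini-Hochberg adjusted p under 0.05 over the 12753 genes tested. Of the 10 genes, 2 rose and 0 fell, against 9.72% of all genes tested that were called higher, 10.6% called lower and 20.3% called either way. At an unadjusted p under 0.05, 4 of the 10 were higher and 1 was lower, and DESeq2 called 3 higher and 0 lower. The median log2 fold change was 0.38 over the 10 genes and 0.02 over all genes tested. The 2 groups did not overlap for 4 of the 10 genes (Ccr1, Ccr2, Cxcr4 and Ccl24), as for 46.3% of all genes.

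Ccr2, the monocyte receptor, was at 50.8, 53.2 and 57.9 CPM in EKLF+/+ cells and at 87.5, 102 and 83.3 CPM in EKLF-/- cells. All 3 EKLF-/- libraries lay above all 3 EKLF+/+ libraries. The rise was 1.68-fold (log2 fold change 0.75, SE 0.11, edgeR adjusted p = 0.00379) and kept its call when any 1 library was left out (0.65 to 0.81 on the log2 scale). Cxcr4, the receptor that retains blood cells near CXCL12, was at 31.3, 32.0 and 28.4 CPM in EKLF+/+ and at 37.6, 45.6 and 43.8 CPM in EKLF-/- cells, again without overlap. The rise of Cxcr4 was 1.38-fold (log2 fold change 0.47, SE 0.12, edgeR adjusted p = 0.0334). The Cxcr4 call was lost without EKLF+/+ replicate 1, 2 or 3 or EKLF-/- replicate 3 (adjusted p 0.104, 0.0874, 0.116 and 0.109), while the log2 fold change stayed between 0.39 and 0.55.

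Ccr1 and Cx3cr1 had higher means in EKLF-/- cells but did not pass the test. Ccr1 was at 17.4, 23.6 and 23.8 CPM in EKLF+/+ and 25.0, 40.7 and 26.9 CPM in EKLF-/- cells (log2 fold change 0.51, 95% interval 0.03 to 1.00, edgeR adjusted p = 0.115). Its groups did not overlap, although EKLF-/- replicate 2 stood well above the other two, and without it the log2 fold change was 0.24 (adjusted p = 0.273). Cx3cr1 was at 23.1, 33.2 and 26.5 CPM in EKLF+/+ and 34.5, 38.8 and 30.6 CPM in EKLF-/- cells (log2 fold change 0.33, 95% interval -0.05 to 0.70, adjusted p = 0.176), and these groups overlapped. Summed over the 4 receptors, the level was 185 to 227 CPM in EKLF-/- and 123 to 142 CPM in EKLF+/+ libraries.

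**Figure D1:**
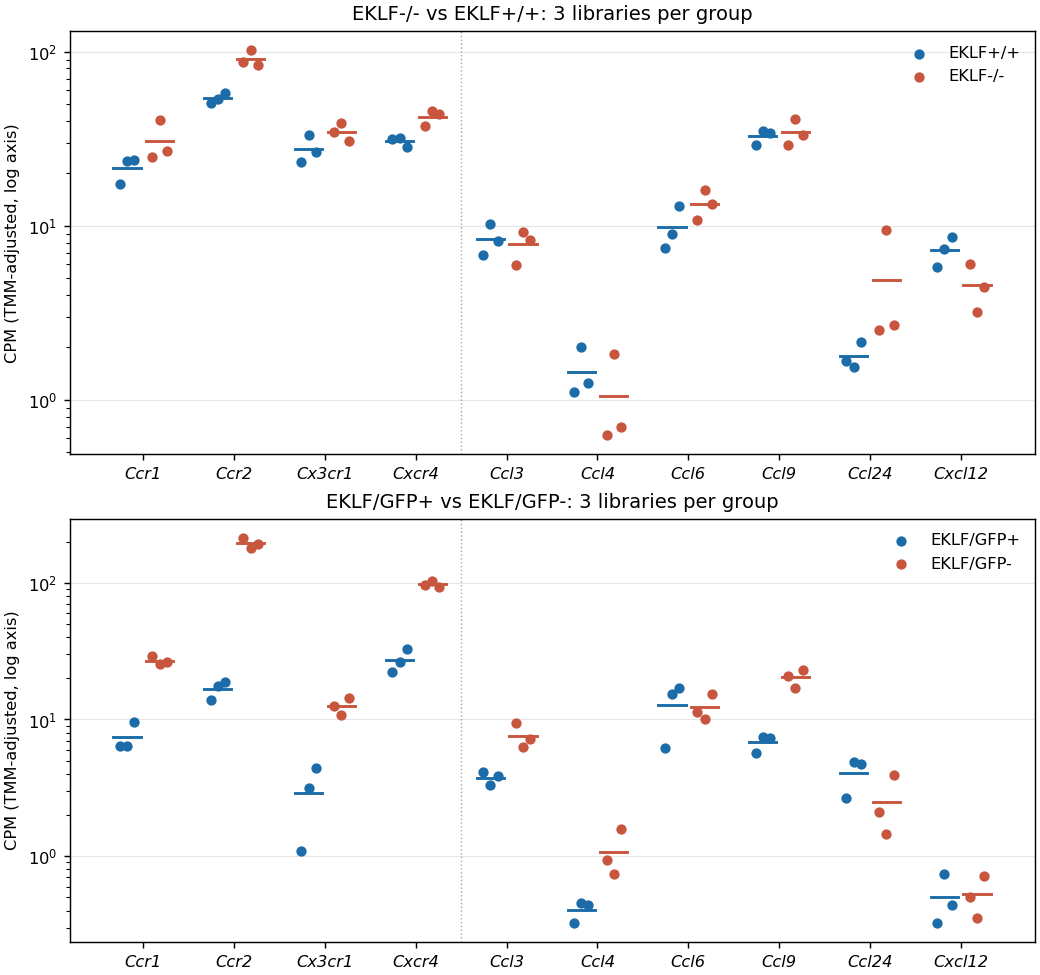
CPM (log axis) of each gene in each bulk library, with 1 point per library and a bar at the group mean. Ccr1, Ccr2, Cxcr4 and Ccl24 do not overlap between EKLF-/- and EKLF+/+ libraries, and 7 genes do not between EKLF/GFP+ and EKLF/GFP- libraries.

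Among the ligands, Ccl24, the eotaxin, had the largest difference and the least even libraries. It was at 1.66, 1.53 and 2.16 CPM in EKLF+/+ and at 2.50, 9.40 and 2.70 CPM in EKLF-/- cells, so the groups did not overlap but 1 library carried most of the difference. The log2 fold change of Ccl24 was 1.44 (SE 0.53, edgeR adjusted p = 0.083), and without EKLF-/- replicate 2 it was 0.53 (adjusted p = 0.208). Ccl24 did pass the threshold without EKLF-/- replicate 1 (1.76, adjusted p = 0.0283) and in DESeq2 (1.45, adjusted p = 0.028). EKLF-/- replicate 2 also had the highest summed macrophage-like level of its group (574 CPM, against 416 and 391 CPM), and the part of this in the Ccl24 value was not tested.

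Cxcl12, the ligand of CXCR4, was at 5.82, 7.33 and 8.63 CPM in EKLF+/+ and at 6.05, 3.21 and 4.47 CPM in EKLF-/- cells. The EKLF-/- range reached into the EKLF+/+ range through replicate 1 alone. Its log2 fold change was -0.66 (SE 0.26, edgeR adjusted p = 0.102), and without EKLF-/- replicate 1 it was -0.92 and passed (adjusted p = 0.0341). Of the markers of other cells, 5 of 8 endothelial-like and 5 of 8 mesenchymal-like markers tested were lower in EKLF-/- cells, with summed levels of 172 to 182 against 248 to 279 CPM and 24.2 to 36.4 against 43.6 to 148 CPM. Of 8 hepatoblast-like markers, whose cells held the highest single-cell level of Cxcl12, 0 were called by edgeR and 0 had an unadjusted p under 0.05 (median log2 fold change 0.27, summed levels 1326 to 1590 against 981 to 1601 CPM). The part of these cells in the Cxcl12 value was not tested.

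The other 4 ligands overlapped between the groups. Ccl9, a CCR1 ligand, was at 29.2, 35.2 and 33.9 CPM in EKLF+/+ and at 29.0, 41.0 and 33.3 CPM in EKLF-/- cells (log2 fold change 0.07, 95% interval -0.28 to 0.42, edgeR adjusted p = 0.756). Ccl6 was at 7.49, 8.99 and 13.03 CPM and at 10.8, 15.98 and 13.3 CPM (0.44, interval -0.10 to 0.98, adjusted p = 0.204). Ccl3 was at 6.75, 10.2 and 8.13 CPM and at 5.98, 9.17 and 8.32 CPM (-0.10, interval -0.62 to 0.41, adjusted p = 0.755). Ccl4 had between 9 and 30 counts in a library, which put it at 1.11, 2.00 and 1.25 CPM and at 0.626, 1.84 and 0.694 CPM (-0.50, interval -1.56 to 0.57, adjusted p = 0.449). Without 1 library the Ccl4 value ran from -1.17 (without EKLF-/- replicate 2, adjusted p = 0.0716) to -0.20 (without EKLF+/+ replicate 2). At this depth the intervals leave differences of either direction for Ccl3, Ccl4, Ccl6 and Ccl9.

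Markers of other blood cells shifted between the same libraries. In EKLF-/- cells, 4 of 6 granulocyte-monocyte progenitor-like markers rose (summed level 5621, 10640 and 6540 CPM, against 4605, 5044 and 3654 CPM), as did 4 of the 9 neutrophil-like markers tested, while 1 fell (3073 to 5247 against 1754 to 2669 CPM). Of the monocyte-like markers 1 of 9 rose (638 to 995 against 511 to 611 CPM), and 6 of 10 erythroid-like markers fell (3931 to 6548 against 10180 to 11560 CPM). Of the macrophage-like markers 3 of 14 tested fell (391 to 574 against 386 to 456 CPM), and 2 of 6 mast cell- or basophil-like markers rose (219 to 278 against 185 to 231 CPM). Ly6g, a defining neutrophil gene, was not analysed here in these libraries. The part of these shifts in the Ccr2 and Cxcr4 values was not tested.

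The second comparison asked how F4/80+ cells sorted as GFP-positive differ from those sorted as GFP-negative. Klf1 was at 100.6, 90.2 and 87.25 CPM in EKLF/GFP+ and at 34.6, 45.7 and 28.6 CPM in EKLF/GFP- libraries. Klf1 RNA was thus lower but not absent in the GFP-negative group. All 4 receptors and 3 of the 6 ligands were lower in EKLF/GFP+ cells, by 2.02-fold to 11.6-fold, and no member was higher. That is 7 of 10 genes called lower by edgeR, against 25.8% of the 14259 genes tested, and 0 called higher, against 18.9% (44.7% either way). At an unadjusted p under 0.05, and in DESeq2, the counts were also 7 lower and 0 higher. The median log2 fold change was -1.48 over the 10 genes and -0.01 over all genes tested. The same 7 genes did not overlap between the groups, which was so for 55.7% of all genes tested. RNA of the EKLF/GFP+ cells was prepared with a different kit from that of EKLF/GFP- cells, so preparation and group cannot be told apart in any of these values.

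Ccr2 had the largest difference. It was at 13.9, 17.5 and 18.9 CPM in EKLF/GFP+ and at 212, 178 and 191 CPM in EKLF/GFP- cells. Every EKLF/GFP- library was far above every EKLF/GFP+ library, and Ccr2 was 11.6-fold lower in EKLF/GFP+ cells (log2 fold change -3.53, SE 0.14, edgeR adjusted p = 5.93e-06). Cxcr4 was at 22.4, 26.5 and 32.8 CPM against 95.5, 102 and 93.8 CPM, a 3.57-fold fall (log2 fold change -1.84, SE 0.14, adjusted p = 3.43e-05). Ccr1 fell by a like amount, 3.60-fold, from 28.9, 25.4 and 26.3 CPM in EKLF/GFP- to 6.38, 6.39 and 9.62 CPM in EKLF/GFP+ cells (log2 fold change -1.85, SE 0.17, adjusted p = 9.29e-05). Cx3cr1 was at 1.09, 3.15 and 4.41 CPM against 12.5, 10.8 and 14.3 CPM, 4.36-fold lower (log2 fold change -2.13, SE 0.41, adjusted p = 0.0035), with EKLF/GFP+ replicate 1 the lowest. The 4 receptors together made up 43.7 to 65.7 CPM in EKLF/GFP+ and 317 to 349 CPM in EKLF/GFP- libraries.

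The CCR1 ligand Ccl9 was at 5.73, 7.46 and 7.28 CPM in EKLF/GFP+ and at 21.0, 16.9 and 23.0 CPM in EKLF/GFP- cells, 2.97-fold lower (log2 fold change -1.57, SE 0.16, edgeR adjusted p = 0.00014). Ccl3 was at 4.10, 3.32 and 3.86 CPM against 9.34, 6.26 and 7.17 CPM, 2.02-fold lower (log2 fold change -1.01, SE 0.19, adjusted p = 0.00315). Neither gene overlapped between the groups. Ccl4 had 9, 11 and 11 counts in EKLF/GFP+ and 26, 21 and 37 counts in EKLF/GFP- libraries (log2 fold change -1.39, SE 0.38, adjusted p = 0.0169). Its groups did not overlap, but the call was lost without EKLF/GFP+ replicate 1 (-1.22, adjusted p = 0.0565).

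The remaining 3 ligands were not called. Ccl6, the other rodent chemokine, was at 6.20, 15.4 and 16.9 CPM in EKLF/GFP+ and at 11.4, 10.1 and 15.4 CPM in EKLF/GFP- cells (log2 fold change 0.06, 95% interval -0.74 to 0.86, edgeR adjusted p = 0.908). Its EKLF/GFP+ libraries lay on both sides of the EKLF/GFP- range. Ccl24 was at 2.68, 4.85 and 4.69 CPM against 2.12, 1.44 and 3.94 CPM (0.71, interval -0.19 to 1.61, adjusted p = 0.177), and passed as higher in EKLF/GFP+ cells without EKLF/GFP- replicate 3 (1.18, adjusted p = 0.031). In limma on the gene counts the authors normalized, the log2 fold change of Ccl24 was 1.78 (adjusted p = 0.0956). Cxcl12 had 9, 18 and 11 counts against 14, 10 and 17 counts (-0.06, interval -1.05 to 0.93, adjusted p = 0.93). EKLF/GFP+ replicate 1 was the lowest of its group in CPM for 9 of the 10 genes, all but Ccl3 and with Ccr1 nearly level with replicate 2, in TPM (transcripts per 1000000, scaled for length) for 7, and for the summed macrophage-like markers (306 CPM, against 568 and 785 CPM). The part of that library's macrophage-like level in these values was not tested.

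**Figure D2:**
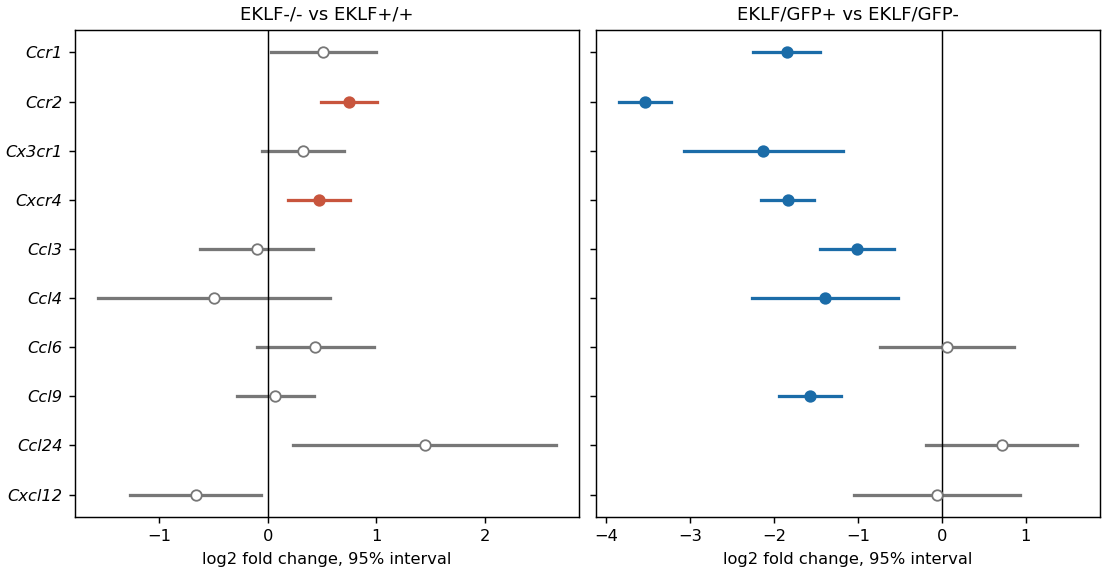
Log2 fold change of each gene with its 95% interval in the 2 bulk comparisons, each with 3 libraries per group. The receptors lie above 0 in EKLF-/- against EKLF+/+ cells and below 0 in EKLF/GFP+ against EKLF/GFP- cells. The interval of Cx3cr1 crosses 0 in the first comparison, where edgeR called Ccr2 and Cxcr4 but not Ccr1 or Cx3cr1. In the second comparison all 4 receptors were called.

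Markers of most other cell types differed too. In EKLF/GFP+ cells, 8 of 9 monocyte-like markers were lower (summed level 101, 126 and 114 CPM, against 870, 765 and 887 CPM), as were 10 of 10 neutrophil-like (124 to 316 against 1664 to 2363 CPM) and 6 of 6 granulocyte-monocyte progenitor-like markers (394 to 506 against 3446 to 3587 CPM). Of 7 mast cell- or basophil-like markers, 2 were lower and 5 were not called (median log2 fold change -0.13, 150 to 203 against 252 to 336 CPM). Dendritic cell-like markers were lower for 6 of 7 genes (5.22 to 6.28 against 47.9 to 55.8 CPM), lymphoid-like markers for 6 of the 6 tested (7.79 to 10.6 against 40.8 to 52.8 CPM) and endothelial-like markers for 6 of 8 (85.3 to 119 against 222 to 255 CPM). Megakaryocyte-like markers were higher for 7 of 8 genes and lower for 1 (154 to 196 against 111 to 114 CPM). Erythroid-like markers were higher for 10 of 10 genes (6767 to 7697 against 2515 to 3110 CPM). Of the macrophage-like markers, 1 of 14 tested was higher and 1 was lower, and the summed levels overlapped (306 to 785 against 401 to 647 CPM). Whether the chemokine genes differ beyond these shifts was not tested. Ccr2 and Cxcr4 were called in both comparisons, higher in EKLF-/- and lower in EKLF/GFP+ cells. Granulocyte-monocyte progenitor-like markers went the same way, 4 of 6 higher in EKLF-/- and 6 of 6 lower in EKLF/GFP+ cells. The share of all genes called in this way in both comparisons was not counted.

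Beyond these 10 genes, 52 other chemokine ligands and receptors were listed. In the EKLF-/- comparison 16 of them had enough counts, of which 1 rose and 3 fell, against 9.72% and 10.6% of all genes tested. Without EKLF+/+ replicate 1, 2 or 3 or EKLF-/- replicate 3, 0 rose. Ackr1, the atypical receptor that carries the Duffy antigen on red cells, fell from 26.4, 26.9 and 34.9 CPM to 1.04, 2.06 and 1.62 CPM (log2 fold change -4.22, adjusted p = 2.09e-05). Ackr3, the atypical receptor that binds CXCL12 and removes it, fell from 10.3, 20.0 and 13.7 CPM to 3.13, 4.43 and 2.77 CPM (-2.09, adjusted p = 0.0025). Ccr9, a homing receptor of thymic precursors, fell as well (-1.28, adjusted p = 0.0128). None of the 6 other ligands tested was called by edgeR or had an unadjusted p under 0.05, and DESeq2 gave the same counts over the 52 genes.

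In the reporter comparison 14 of the 52 were tested, of which 6 were higher and 4 lower in EKLF/GFP+ cells, against 18.9% and 25.8% of all genes tested. The number lower depended on the filter and the tool, with 2 when 10 counts were required in every library, 9 in DESeq2 and in limma and 10 with no filter. Both atypical receptors were called in the opposite direction from the EKLF-/- comparison, Ackr1 at 44.1, 50.6 and 49.3 CPM in EKLF/GFP+ against 14.8, 17.4 and 12 CPM in EKLF/GFP- cells (log2 fold change 1.70, edgeR adjusted p = 4.98e-05) and Ackr3 at 14.3, 8.42 and 27.9 CPM against 2.37, 0.598 and 0.678 CPM (3.77, adjusted p = 0.00148). The platelet chemokine Ppbp was also higher (2.47, adjusted p = 0.000389), as were 7 of 8 megakaryocyte-like markers. The 4 lower include Ccr7, a receptor of migrating dendritic cells and lymphocytes (-3.22). Ccr7 had 2, 1 and 1 counts in EKLF/GFP+ and 13, 19 and 10 counts in EKLF/GFP- libraries. It met the count filter only through the EKLF/GFP- group, so its direction was set by the filter and its test is no support. The next largest falls were those of Ccr9 (-3.07, edgeR adjusted p = 3.34e-05) and Cxcr2, the neutrophil receptor (-2.997, adjusted p = 6.36e-05). The CXCL12 system was thus measured through both of its receptors, with Cxcr4 lower and Ackr3 higher in EKLF/GFP+ cells.

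Of 29 genes that carry the signal of these receptors (G protein subunits, kinases, arrestins, regulators of G protein signalling, phosphoinositide and Rac pathway genes), all were tested in both comparisons. In EKLF-/- cells 2 rose and 2 fell (13.8%, against 20.3% of all genes tested). Rgs10, which shortens G protein signals, rose from 41.0, 39.1 and 50.2 CPM to 84.3, 106 and 89.9 CPM (log2 fold change 1.11, edgeR adjusted p = 0.00148), and Rgs19, of the same family, rose less (0.55, adjusted p = 0.0334). Arrb1, an arrestin that uncouples receptors, fell from 1118, 1032 and 1059 CPM to 360, 237 and 316 CPM (-1.81, adjusted p = 0.000266), and Prex1, a Rac activator, fell by 0.50 on the log2 scale (adjusted p = 0.0201). In EKLF/GFP+ cells 4 were higher and 19 lower (79.3%, against 44.7% of all genes tested). The largest falls were Pik3r5, a subunit of the G protein-activated PI3 kinase (-2.95, adjusted p = 0.000104), Elmo1, which acts with DOCK2 on Rac (-2.56, adjusted p = 1.31e-05), and Gng2, a G protein subunit (-2.54, adjusted p = 3.74e-05). The largest rises were Arrb1 (1.09, adjusted p = 3.34e-05), Rgs10 (0.83, adjusted p = 0.000285) and the receptor kinase Grk5 (0.49, adjusted p = 0.0326).

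Levels can be compared between genes per transcript length, in transcripts per 1000000 transcripts (TPM), in the EKLF/GFP libraries. The study reports lower RNA integrity for EKLF/GFP+ than for EKLF+/+ and EKLF-/- samples. Its part in the TPM values and transcript shares was not tested. In EKLF/GFP- cells Cxcr4 had the highest mean level (60.1 ± 1.88 TPM, SD, n = 3), followed by Ccl9 (52.5 ± 8.06) and Ccr2 (41.1 ± 5.17), and the ranges of neighbours in this order overlapped. These 3 genes stood clear of the next group, formed by Ccl3 (8.75 TPM), Ccl6 (8.32), Ccr1 (6.18), Ccl24 (4.33), Cx3cr1 (2.55) and Ccl4 (1.56), each overlapping its neighbour. Cxcl12 was the lowest at 0.147 TPM and lay below the range of Ccl4.

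In EKLF/GFP+ cells the order was led by Ccl9 (18.1 ± 1.84 TPM) and Cxcr4 (16.2 ± 3.06), whose ranges overlapped. Ccl6 (8.32 TPM), Ccl24 (6.17), Ccl3 (4.17) and Ccr2 (3.37) followed with overlapping ranges, and Ccr1 (1.65), Ccl4 (0.561) with Cx3cr1 (0.559), and Cxcl12 (0.143) each lay apart from the gene before. Ccl6 and Ccl24 thus had higher means than Ccr2 and Ccr1 in the EKLF/GFP+ cells. In EKLF/GFP- cells Ccr2 stood above both ligands, and Ccr1 lay between them in the mean with overlapping ranges.

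**Figure D3:**
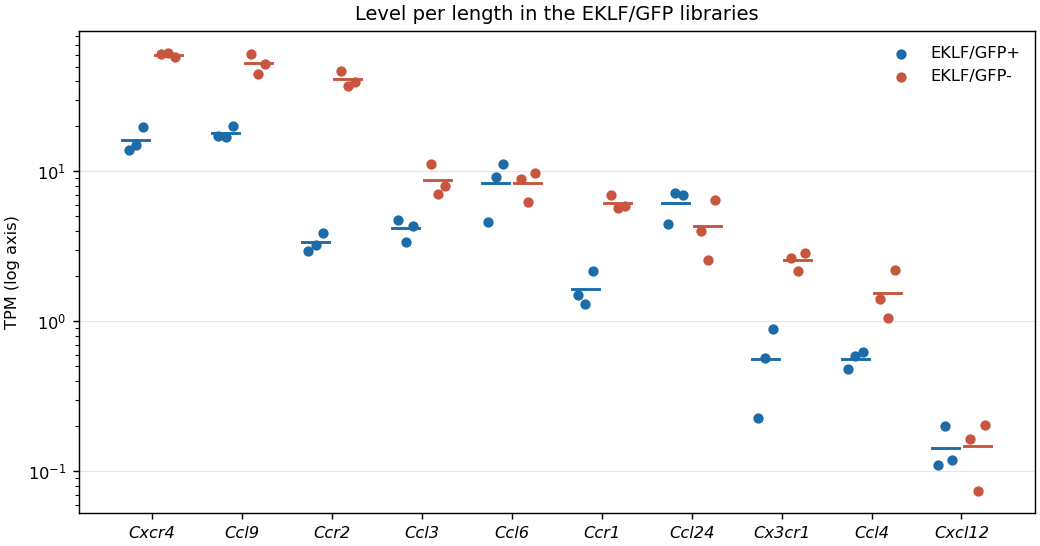
TPM (log axis) of each gene in the 3 EKLF/GFP+ and 3 EKLF/GFP- libraries, ordered by the EKLF/GFP- mean, with 1 point per library and a bar at the group mean. Ccl6, Ccl24 and Cxcl12 overlap between the groups and the other 7 genes do not.

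The place of Ccl9 rests on how its reads were split between 2 annotated transcripts. The short Ccl9-202 (398 bases, a processed transcript without an annotated protein) held 64.5% of the reads and, being short, 96.9% of the gene's TPM in EKLF/GFP- and 97.5% in EKLF/GFP+ cells. The coding Ccl9-201 (3006 bases) held the other 35.5% of reads and stood at 1.61 TPM in EKLF/GFP- and 0.450 TPM in EKLF/GFP+ cells. For Cxcr4, the coding transcripts Cxcr4-201 and Cxcr4-202 held 55.1% and 44.9% of the reads, and Cxcr4-202 gave 66.1% of the TPM in EKLF/GFP- and 66.0% in EKLF/GFP+ cells. The coding Ccl6-201 held 78.5% of the Ccl6 reads, with the rest on 2 retained-intron transcripts, but 59.2% of its TPM in EKLF/GFP- and 55.9% in EKLF/GFP+ cells. In EKLF/GFP+ replicate 1 Ccl6-201 alone was at 2.11 TPM, under Ccr2 at 2.96 TPM, so the place of Ccl6 above Ccr2 there rests on the retained-intron transcripts. Ccr2-201 gave 87.0% of the Ccr2 TPM in EKLF/GFP- and 84.1% in EKLF/GFP+ cells.

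The single-cell library located these genes among the F4/80-selected cells. It held 3096 barcodes, of which 3093 had at least 200 genes, with a median of 18605 molecules per cell. The cells fell into 17 clusters, made without any chemokine gene. Clusters 0 and 3 were macrophage-like (402 and 283 cells, led by Cd5l, Marco, Fcna and Vcam1), and smaller clusters were erythroid-like (198 cells), megakaryocyte-like (87), endothelial-like (84), hepatoblast-like (67), neutrophil-like (30) and mast cell- or basophil-like (19). The other 9 clusters are left without a cell type name. They include cluster 1 (387 cells, led by Fcrls, Dab2, C3ar1 and Stab1), cluster 4 (279 cells, led by Cd74, Lsp1, Napsa and Cd34, with 5 of the monocyte-like markers among its 30 leading genes) and cluster 6 (203 cells, led by Elane, Camp and Ms4a3). Cluster 1 had the macrophage-like marker Mrc1 among its 10 leading genes and 3 monocyte-like markers among its 30 leading genes. Adgre1 was at 693 and 760 CPM in the macrophage-like clusters 0 and 3, and clusters without a name also held it, at 990 CPM in cluster 14, 498 in cluster 9, 394 in cluster 2 and 357 in cluster 1, against 105 CPM in cluster 4 and 31.4 CPM in erythroid-like cells. The library is 1 sample, so nothing is tested between clusters, and intervals cover counting error only.

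Of the 10 genes, Ccl24 and Ccl6 had the highest levels in the macrophage-like clusters. Ccl24 was at 695 CPM in cluster 0 and 693 CPM in cluster 3 (95% Poisson intervals 679 to 711 and 664 to 723), and 59.5% of its molecules were in these clusters. It was lower in clusters 9 (482 CPM), 2 (429 CPM), 14 (327 CPM) and 1 (297 CPM). A molecule of Ccl24 was seen in 94.3% of macrophage-like cells, and in 82.3% after every cell was thinned to 5000 molecules (median molecules per cell 23075 in cluster 0 and 9665 in cluster 3). In erythroid-like cells, which are not known to make it, the shares were 34.3% at a median of 25119 molecules per cell and 10.7% after thinning, with a level of 23.2 CPM. The remaining clusters were at 18.8 to 41.6 CPM. Clusters 4 (interval 36.3 to 45.9 CPM), 8 (33.5 to 47.7 CPM) and 11 (31.3 to 54.1 CPM) lay above the erythroid-like interval (19.2 to 27.6 CPM). Ccl6 was at 261 CPM in cluster 3 and 237 CPM in cluster 0, and its thinned share was 58.8% of macrophage-like and 5.10% of erythroid-like cells. The neutrophil-like cells held 199 CPM of Ccl6, from 8 of 30 cells, and 45.0 CPM once cells with the highest doublet scores were left out.

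**Figure D4:**
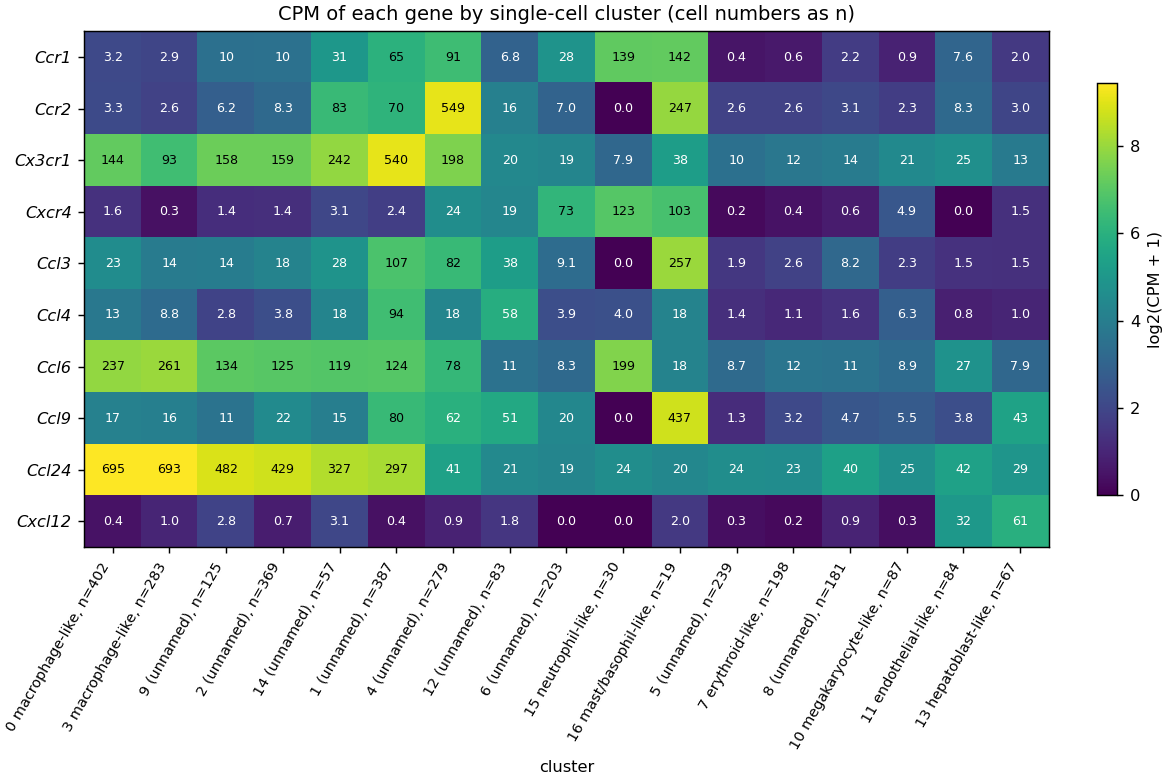
CPM of each gene (rows) in each of the 17 single-cell clusters (columns), from 1 library, with colour on a log scale. Ccl24 and Ccl6 are highest in the macrophage-like clusters 0 and 3, Ccr2 in cluster 4, Cx3cr1 in cluster 1 and Cxcl12 in the hepatoblast-like cluster 13.

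Ccr2 was concentrated in cluster 4, at 549 CPM (interval 532 to 566 CPM), where 79.8% of its molecules lay. It was seen in 95.3% of cluster 4 cells (82.7% thinned), against 5.84% of macrophage-like (1.31% thinned) and 7.07% of erythroid-like cells (2.04% thinned). The macrophage-like share is at or under the erythroid-like one and is read as background. The mast cell- or basophil-like cells held 247 CPM, cluster 14 held 82.5 CPM from 27 molecules, and cluster 1 held 70.0 CPM. After thinning, a cluster 4 cell had a median of 2 Ccr2 molecules, with 7 at the 90th percentile and 15 at most.

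Cx3cr1 was highest in cluster 1, at 540 CPM (interval 524 to 555), and 94.1% of those cells held a molecule (81.5% thinned). Cluster 14 was next at 242 CPM, from 79 molecules in 57 shallow cells, followed by cluster 4 at 198 CPM, clusters 2 and 9 at 159 and 158 CPM and the macrophage-like clusters at 132 CPM, where 58.7% of cells held a molecule (33.1% thinned, against 4.08% of erythroid-like cells). Cx3cr1 was thus the only one of the 4 receptors with a macrophage-like share above 6%. Ccr1 was shared more widely. It was at 142 CPM in mast cell- or basophil-like (interval 111 to 179), 139 CPM in neutrophil-like (96.8 to 193), 90.6 CPM in cluster 4 and 65.4 CPM in cluster 1, and at 3.15 CPM in macrophage-like cells.

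Cxcr4 was highest in neutrophil-like cells, at 123 CPM (interval 83.7 to 175), followed by 103 CPM in mast cell- or basophil-like (76.7 to 135) and 73.1 CPM in cluster 6, against 23.8 CPM in cluster 4 and 1.28 CPM in macrophage-like cells. Its molecules were seen in 73.3% of neutrophil-like and 79.3% of cluster 6 cells (53.3% and 34.7% after thinning, from medians of 7741 and 26612 molecules), against 2.19% of macrophage-like and 1.01% of erythroid-like cells (0.146% and 0% thinned), and in 0 of 84 endothelial-like cells, which allows up to 3.57% of cells with a molecule (3 in 84, counting error only) and does not limit the cells expressing it. Cxcl12 was at 60.7 CPM in hepatoblast-like (interval 50.4 to 72.4) and 31.7 CPM in endothelial-like cells (22.9 to 42.9), and at 0.525 CPM in macrophage-like cells. It was seen in 61.2% of hepatoblast-like, 9.52% of endothelial-like and 1.02% of macrophage-like cells, or 25.8%, 6.02% and 0.292% after thinning.

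The inflammatory ligands peaked outside the clusters named macrophage-like. Cluster 1, which has no name, nevertheless held Adgre1 at 357 CPM. Ccl3 was at 257 CPM in mast cell- or basophil-like (interval 215 to 305), 107 CPM in cluster 1, 82.3 CPM in cluster 4 and 21.2 CPM in macrophage-like cells. Ccl4 was at 93.6 CPM in cluster 1 (87.2 to 100), 58.1 CPM in cluster 12 and 11.9 CPM in macrophage-like cells. Both were uneven between cells of a cluster, since in thinned cluster 1 cells the 90th percentile was 2 molecules of Ccl3 and 1 of Ccl4 and the highest cells held 27 and 28 molecules. The 2 ligands were often seen in the same cells of cluster 1, where 41.3% of thinned cells with Ccl3 also held Ccl4, against 8.58% of those without. Ccl9 was at 437 CPM in mast cell- or basophil-like (381 to 498), 80.3 CPM in cluster 1, 62.4 CPM in cluster 4 and 16.6 CPM in macrophage-like cells. In macrophage-like cells the shares with a molecule were 15.3% for Ccl3, 8.32% for Ccl4 and 20.9% for Ccl9, against 5.56%, 3.03% and 8.08% of erythroid-like cells. After thinning they were 6.28%, 2.92% and 6.42%, against 0%, 0% and 0.51% of 196 erythroid-like cells.

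Set beside the sorted populations, each of the 7 genes lower in EKLF/GFP+ cells had its highest single-cell level outside the macrophage-like clusters. Of the 3 not called, Ccl6 and Ccl24 had theirs in macrophage-like cells, but Cxcl12 also peaked outside, in hepatoblast-like cells. Among the 17 clusters only clusters 0 and 3 are named macrophage-like. The share of all genes with their highest level outside these clusters was not counted. Cx3cr1 and Ccl4 peaked in cluster 1, which also held Adgre1. Outside the clusters named macrophage-like thus does not mean outside F4/80-expressing cells. These values are set side by side and their relation was not tested. In neutrophil-like cells Ccr2, Ccl3, Ccl9 and Cxcl12 were seen in 0 of 30 cells, which allows up to 10.0% of cells with a molecule (3 in 30) at their median of 7741 molecules. Ccr2 and Ccr1 shared cluster 4, where 36.7% of thinned cells with Ccr2 and 33.3% of those without it held Ccr1.

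Genes whose pattern over the 17 clusters was most like each member (Pearson r of log2(CPM + 1), among 10879 genes with at least 200 molecules, a description over clusters of 1 library) were C1qa, C1qc (0.992 each) and Hmox1 (0.991) for Ccl24, and Acvrl1 (0.953), Fcgr4 (0.946) and Rab39 (0.943) for Ccl6. For Cx3cr1 they were Trim30d and Apobec1 (0.959 each), for Cxcr4 Rab44 (0.959), Cxcr2 (0.953) and Il18rap (0.951), and for Cxcl12 H19 (0.977), Igf2 (0.966) and Gm49394 (0.964). Looser matches were Btg1 (0.907), Myo1f (0.896) and Cask (0.889) for Ccr1, Ahnak (0.888), Oas3 (0.884) and Ccl3 (0.838) for Ccr2, and Rhoh (0.892), Rgs1 (0.859) and Cd48 (0.836) for Ccl4. Ccl3 and Ccl9 resembled each other (0.86), beside Ms4a6c (0.865) and Ms4a6b (0.849) for Ccl3 and Cebpa, Il3ra (0.871 each) and Dhdh (0.869) for Ccl9.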

How the data were processed

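Raw counts per gene, which the authors made with STAR (mm10) and htseq-count, were deposited for EKLF+/+ and EKLF-/-. Rows that name no gene were left out, and 27.3% to 32.8% of the reads in each file fell on genes. For the EKLF/GFP libraries the authors deposited Salmon estimated counts and TPM per transcript (Ensembl GRCm38), with the effective length in bases, and a table of gene counts they had normalized with DESeq2 (a signal per gene). For the single cells the authors deposited Alevin estimated counts of molecules. A deposited table of the authors' log2 counts and fold changes was not used, and 11 columns of per-sample values were left out.

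Salmon counts were summed per gene (115977 of 116546 transcripts joined) and rounded. A gene needed 10 counts or more in 3 of 6 libraries and was tested with edgeR 4.0.16 (TMM, quasi-likelihood), adjusted by Benjamini-Hochberg over all genes tested, with a call at 0.05. CPM are TMM-adjusted, except the summed macrophage-, monocyte-, neutrophil-, progenitor- and erythroid-like markers and the bulk levels set beside single cells, which use library totals. Alternatives used DESeq2 1.42.0, other filters, a replicate block, each library left out, a length offset and limma 3.58.1 on log2(value + 1). With 3 libraries a side an exact permutation test cannot go below 0.1, so none was used. Nothing given here says whether the replicates came from separate litters. The fit was also run on simulated data, and no result given here rests on that run.

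Cells were clustered with Seurat 5.3.0 (4000 variable genes, 30 components, resolution 0.8) without chemokine genes. The study kept slightly fewer cells after a filter whose settings are not given in the sources used here. A cluster was named when at least 3 of 1 marker list, and of no other, were among its 10 leading genes, a rule set after seeing the data. Scrublet called no doublets, so leaving out the 5% of cells with the highest scores was added after seeing the data. A cell held a molecule when its estimate rounded to 1 or more. Intervals are 95% (exact Poisson, Wilson). Thinning left out 56 cells. Named genes were the members, Klf1, Adgre1, in each comparison the 3 largest rises and falls among other chemokine genes and among signalling genes, and the 3 genes most like each member. Ly6g and, in single cells, Pf4, Ccl2, Cxcl10 and Ccl5 were named after their values were seen, and 1 gene that these rules name is not reported here. Members and lists were chosen with earlier results of these data known.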

Additional observations from a re-analysis of the deposited data

How the results depend on the processing

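Without 1 library the number of members called in EKLF-/- cells was 1 to 3 higher and 0 to 1 lower, and in EKLF/GFP+ cells 6 to 7 lower and 0 to 1 higher. The replicate block gave 1 member higher in EKLF-/- cells, since Cxcr4 was lost (log2 fold change 0.47, adjusted p = 0.0653). Same-numbered libraries did not deviate together (correlations -0.108 to 0.006 in the EKLF-/- set, -0.244 to -0.008 in the EKLF/GFP set), so the numbers were not taken as pairs. Values near 0 changed sign. In EKLF-/- cells Ccl9 ran from -0.092 to 0.18 without 1 library (-0.01 without EKLF+/+ replicate 1) and Ccl3 from -0.25 to 0.06 (0.05 without EKLF+/+ replicate 2). In EKLF/GFP+ cells Ccl6 was -0.031 with the replicate block and -0.18 to 0.43 without 1 library, and Cxcl12 was 0.077 with the length offset, 0.11 in limma and -0.43 to 0.22 without 1 library. The cause of these changes was not tested. Other chemokine genes lower in EKLF/GFP+ cells numbered 4, and 9 with DESeq2, 10 with no filter, 2 with the strict filter and 9 with limma, which test different numbers of genes. Over all genes, 2595 were called in EKLF-/- cells, 1901 with the block and 922 to 3619 without 1 library. In all other bulk alternatives the member counts stayed within 1.5 times. In single cells, of 180 values by cluster, 9 moved beyond their interval with chemokine genes left in the clustering, 13 with cells of at least 1000 genes, 36 at resolution 0.4, 20 without the highest Scrublet scores and 0 without Scrublet doublets, as did 71 of 90 shares after thinning. Ccl6 in neutrophil-like cells was 199 CPM and 45.0 CPM without the highest Scrublet scores. At resolution 0.4 the mast cell- or basophil-like cells lay in a wider cluster, with Ccl9 at 121 CPM in place of 437 CPM. Ccl4, Ccl24 and Cxcl12 had the fewest bulk counts, so counting error weighs most there.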

Other observations

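Other chemokine genes had their own places among the single cells, and 15 of the 52 listed reached 200 molecules. Pf4, the platelet chemokine, was at 6392 CPM and Ppbp at 311 CPM in megakaryocyte-like cells, with Pf4 also at 1045 CPM in cluster 1 and at 434 and 497 CPM in macrophage-like clusters 0 and 3. Cluster 1, where Cx3cr1 and Ccl4 peaked, also held the highest level of the monocyte attractant Ccl2 (66.8 CPM), against 53.0 CPM in macrophage-like cluster 0. Cxcr2, the neutrophil receptor, was at 151 CPM in neutrophil-like cells and 33.4 CPM in cluster 6. Cxcl10 was at 69.6 CPM in hepatoblast-like cells, Ccl5 at 31.3 CPM in cluster 12 and Ackr1 at 29.0 CPM in erythroid-like cells.

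On library totals, without TMM, the sorted bulk libraries and the bead-selected single cells differed in the level of macrophage-like genes. The 15 macrophage-like markers summed to 386 to 456 CPM in EKLF+/+ bulk libraries and to 5330 CPM over all single cells, while 10 erythroid-like markers summed to 10180 to 11560 and 685 CPM. Ccl24 was at 1.497 to 2.08 CPM in the bulk libraries and 222 CPM in the single cells, Ccl6 at 7.57 to 12.6 and 85.4 CPM, and Cx3cr1 at 23.4 to 32.5 and 131 CPM. Cxcr4 lay the other way, at 27.4 to 31.7 CPM in bulk and 11.1 CPM in single cells. Neutrophil-like markers, whose cells held the highest single-cell Cxcr4 level, summed to 1754 to 2669 CPM in EKLF+/+ bulk (without Ly6g) and 6672 CPM in single cells. Monocyte-like markers summed to 511 to 611 CPM in EKLF+/+ bulk and 623 CPM in single cells. Full-length and 3' end libraries weight genes differently, and the isolation, the counting tool and the library type all differ between these values, so what accounts for each was not tested.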
